A study of Mus musculus with 12 samples.

Results

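The genes described here are 43 mouse genes of mitosis and the spindle, taken from a list of symbols. The list was chosen with earlier results of these data known. Of these, 42 are named by the array's annotation, by 103 probe sets, among 20015 features tested in all. Ccnb1 was not analysed here. Every one of the 42 genes kept at least 1 probe set through a filter on low signal: 99 probe sets were kept and 4 were not, 1 each of Aurka, Top2a, Incenp and Racgap1.

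The RNA came from mouse bone marrow cells grown in culture. All groups came from marrow of F1 mice (C57Bl/6Ly-Pep3b x C3H/HeJ, called PepC3) treated with 5-fluorouracil, which leaves early blood progenitors. All of these cells, controls included, carried NUP98-HOXD13 (ND13), a fusion gene found in human leukaemia, delivered by a retrovirus and grown for 4 weeks in liquid culture with interleukin-6, interleukin-3 and stem cell factor. A second retrovirus was then added over 2 days of co-culture on irradiated E86 producer cells. The vector of the control group (MIY) carried only yellow fluorescent protein. In the other groups it brought in the homeobox transcription factor MEIS1 (MEIS1-WT), a form that lacks the homeodomain through which MEIS1 binds DNA (MEIS1-deltaHD), or M33-MEIS1. The Polycomb gene Cbx2 was formerly called M33, and the labels say no more about the M33-MEIS1 construct. Each group has 3 arrays from experiments that the labels call independent. The cells were sorted before RNA was taken, and the labels give neither the gate, nor the time from transduction to RNA, nor the age of the mice.

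Mitosis depends on a burst of gene expression in G2. Cyclin-dependent kinase 1 with A- and B-type cyclins starts it, the Aurora and Polo-like kinases build the spindle, and the spindle checkpoint holds back the anaphase-promoting complex until every kinetochore is attached. Cdc20 and Ube2c then drive that complex to destroy securin (Pttg1) and the cyclins, and centralspindlin, Prc1 and Ect2 direct the final cut between the daughter cells. Many of these genes are switched on together through a promoter element called the cell cycle genes homology region (CHR), bound by the DREAM and B-Myb–MuvB complexes, and through CCAAT boxes bound by NF-Y. In marrow culture such transcripts mark dividing progenitors, and they fade as myeloid cells mature.

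The promoters show what the genes share apart from their function. The RefSeq promoter table (GRCm38.p6) held 37 windows for 34 of the 42 genes, each running from 250 bases before to 50 bases after a start site, and 8 genes had no entry. Both strands were searched for the CHR (TTTGAA or TTCGAA) and for CCAAT. A CHR match lay in 30 windows (81.1%), against 19.2% of all 32851 promoter windows of the table. A CCAAT match lay in 29 windows (78.4%), against 37.4% of all windows. Both motifs lay in 27 windows (73.0%), against 7.52%. Windows with 2 or more CCAAT matches numbered 20 (54.1%), against 11.7%. Neither motif was found in 5 windows, those of Birc5, Mad2l1, Ncaph, Nuf2 and Pttg1, 13.5% against 50.9% of all windows. TTCGAA reads the same on both strands and is counted once per position. These are letter matches and do not show binding, and a window without a match says nothing about the factors. The 150 bases before the start are shown for 5 genes with both motifs and for Birc5 and Mad2l1, which had neither, with the motif letters in capitals (ATTGG is CCAAT and TTCAAA is TTTGAA read on the other strand).
Cdk1 (chr10:69352913-69353062, minus strand): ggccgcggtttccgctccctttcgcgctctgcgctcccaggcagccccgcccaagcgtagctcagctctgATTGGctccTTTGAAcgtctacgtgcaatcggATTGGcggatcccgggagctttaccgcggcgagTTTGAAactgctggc
Ube2c (chr2:164769779-164769928, plus strand): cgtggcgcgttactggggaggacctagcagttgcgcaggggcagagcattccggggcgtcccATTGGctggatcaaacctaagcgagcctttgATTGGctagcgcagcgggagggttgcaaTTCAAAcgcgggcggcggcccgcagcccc
Top2a (chr11:99024190-99024339, minus strand): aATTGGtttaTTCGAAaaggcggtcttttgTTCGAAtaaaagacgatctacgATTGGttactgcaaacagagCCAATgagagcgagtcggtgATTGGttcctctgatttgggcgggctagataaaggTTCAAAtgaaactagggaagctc
Cdc20 (chr4:118437344-118437493, minus strand): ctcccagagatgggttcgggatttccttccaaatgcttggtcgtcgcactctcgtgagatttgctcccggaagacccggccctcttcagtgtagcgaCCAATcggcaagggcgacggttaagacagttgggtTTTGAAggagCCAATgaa
Prc1 (chr7:80294326-80294475, plus strand): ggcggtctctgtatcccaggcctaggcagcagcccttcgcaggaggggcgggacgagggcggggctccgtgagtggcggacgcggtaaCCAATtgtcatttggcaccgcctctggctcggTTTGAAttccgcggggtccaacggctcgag
Birc5 (chr11:117849087-117849236, plus strand): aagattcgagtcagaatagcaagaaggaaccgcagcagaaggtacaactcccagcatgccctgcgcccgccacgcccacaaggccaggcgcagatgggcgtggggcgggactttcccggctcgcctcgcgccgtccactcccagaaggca
Mad2l1 (chr6:66535071-66535220, plus strand): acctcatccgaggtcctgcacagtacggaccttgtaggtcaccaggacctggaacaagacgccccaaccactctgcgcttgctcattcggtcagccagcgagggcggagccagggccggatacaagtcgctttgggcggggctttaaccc

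Values are the authors' scaled signals, 1 probe set per gene (the brightest kept one), and differences are of log2(signal + 16), which understates the change of dim genes. Differences were tested with limma over all 12 arrays and all 20015 features, with Benjamini-Hochberg adjustment, and "rose" or "fell" below means an adjusted p under 0.05. The p-values measure the spread between these arrays. The deposited values of the 12 arrays share a 2% trimmed mean of 100, while their median signal ran from 17.32 to 21.56 in control arrays and from 13.09 to 16.01 in the others. Of the probe sets for Meis1 itself, the brightest read 168 to 205 in control arrays and 100.1 to 148 in the 9 construct arrays; which part of the transcript it reads, and whether the transduced sequence holds that part, is not given, so it does not check the labels. One of the probe sets for Cbx2 read 40.9 to 59.8 in the 3 M33-MEIS1 arrays and 2.01 to 14.7 in the other 9, while another, at 43.7 to 103.7, did not separate the groups.

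Markers were used to check the labelled cells. All 8 listed leukocyte and progenitor markers were measured, with summed signals of 13130 to 14250 in control, 10850 to 11170 with MEIS1-WT, 11240 to 11420 with MEIS1-deltaHD and 11110 to 12030 in M33-MEIS1 arrays. Of these 8, 2, 1 and 1 rose and 4, 4 and 4 fell in that order. The leukocyte marker Ptprc (CD45) had a mean of 2906 in control and fell by 0.87, 0.66 and 0.51 on the log2 scale. The progenitor marker Cd34 rose by 0.64, 0.64 and 0.41, and Kit, the stem cell factor receptor, rose with MEIS1-WT (0.29) and fell with the others (-0.35 and -0.59). The collagen genes Col1a1 and Col1a2, among the 7 measured fibroblast markers, had group means of 2.73 to 16.04 over the 4 groups. Pdgfrb, another of the 7, fell with each construct, and none of the 7 rose. Monocyte and macrophage markers differed most: the summed signal of the 18 measured of 20 listed was 14760 to 17030 in control arrays, 924 to 1119 with MEIS1-WT, 3225 to 3463 with MEIS1-deltaHD, and for M33-MEIS1 it was 4973 to 5550. Mast cell markers (8 of 8 measured) summed to 2654 to 3636 in control arrays, 1870 to 1986, 2212 to 2335 and 4028 to 4357 with the constructs in the same order. Summed signals were 460 to 564 in control and 255 to 386 in construct arrays for fibroblast markers (7 of 12 measured), and 34.8 to 73.8 against 27.7 to 76.6 for erythroid markers (3 of 8 measured).

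One control array stands apart in these genes. Replicate 2 of the control was the lowest of all 12 arrays for 37 of the 42 genes and the lowest control array for 41. Its median over the 42 genes was -0.62 on the log2 scale relative to each gene's mean over the 12 arrays, against -0.18 and -0.13 on control replicates 1 and 3 and 0.05 to 0.17 on the 9 construct arrays. The median coefficient of variation of the genes was 20.6% among control arrays and 4.78%, 4.15% and 5.91% among MEIS1-WT, MEIS1-deltaHD and M33-MEIS1 arrays. Replicate 2 also had the highest median signal of all arrays (21.56) and the lowest summed signal of DNA replication genes (16560, against 19180 and 20420 in the other controls), while its monocyte marker sum of 17030 lay beside that of replicate 3 (16960) and its actin 3′/5′ ratio of 1.51 beside 1.49 and 1.5. Whether any of these bears on its low mitotic signals was not tested. Adjusted-p counts of the 42 genes and of their roles against control are therefore given with and without it. Unadjusted, joint, non-overlap, group-order and single-probe-set counts use every array. Differences from control printed below are repeated without it where a call ended, a sign turned or a called value moved over 1.5 times. This applies to the probe set used for each gene.

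**Figure D1:**
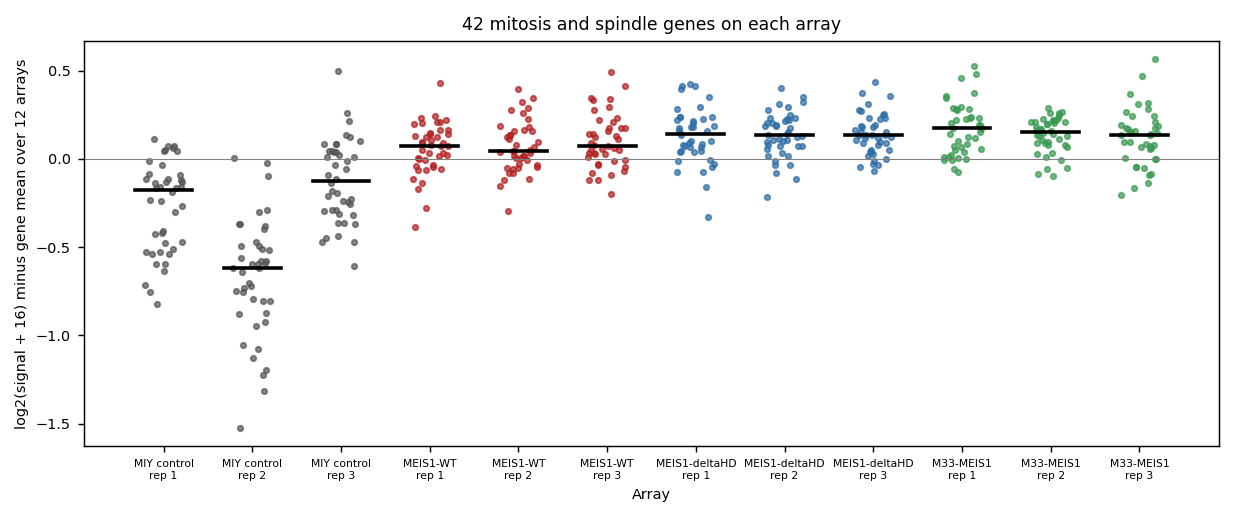
Each point is 1 of the 42 mitosis and spindle genes on 1 array, as log2(signal + 16) minus the gene's mean over the 12 arrays, and the black bars are medians. Control replicate 2 has the lowest median (-0.62), the other control arrays lie at -0.18 and -0.13, and the 9 construct arrays lie between 0.05 and 0.17.

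Against the vector control, most of the 42 genes were higher with each construct. With MEIS1-WT 25 rose and none fell, beside 13.3% of all features called higher and 19.4% called lower. With MEIS1-deltaHD 32 rose and 1 fell (Ect2), beside 13.8% and 22.7%. With M33-MEIS1 29 rose and none fell, beside 12.4% and 18.3%. At an unadjusted p under 0.05, limma put 29, 33 and 33 genes higher in the same order (beside 15.9%, 15.8% and 14.7% of all features). It put 1 gene lower with MEIS1-WT (beside 25.6% of all features) and none with M33-MEIS1 (24.9%), and 1 with MEIS1-deltaHD (29.2%). The median log2 difference of the 42 genes was 0.35, 0.45 and 0.51 in that order, against -0.12, -0.17 and -0.13 over all features. The 3 comparisons share their control arrays, so they are not independent of each other. With every array counted, the control group had the lowest mean of the 4 groups for 39 genes and the highest for Ndc80, Pttg1 and Ect2. Of the 39, Cdc20, Cenpf, Kif11, Prc1, Anln, Smc4 and Racgap1 had at least 1 difference below 0 without control replicate 2. In this bulk RNA, fewer dividing cells and less mitotic RNA per cell cannot be told apart.

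Without control replicate 2, 22, 26 and 24 genes rose in the same order, and the medians were 0.23, 0.30 and 0.29. Among all features 2512, 2594 and 2294 were then higher, against 2665, 2764 and 2472 with every array. The medians of all features were then -0.09, -0.14 and -0.10. The calls lost were Aurka, Bub1b and Top2a with MEIS1-WT, Ccnb2, Cdca8, Cenpe, Hmmr, Kif22 and Prc1 with MEIS1-deltaHD, and Ccnb2, Incenp, Kif4, Plk1 and Prc1 with M33-MEIS1. Pttg1 was then called lower with MEIS1-WT. Monocyte and macrophage markers moved in the other direction in the same comparisons, with 18, 16 and 16 of the 18 lower, and 17, 16 and 16 without control replicate 2; their part in the mitotic differences was not tested. As signs of RNA quality, the actin 3′/5′ signal ratio was 1.49 to 1.51 in control and 1.30 to 1.48 in construct arrays, and the Gapdh ratio went the other way, at 0.774 to 0.801 and 0.811 to 0.882. Neither ratio overlapped between control and constructs, and their part in the differences was not tested.

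The rise was not uniform over the list. In all 3 comparisons 23 genes rose, 7 rose in 2 comparisons (Ccnb2, Plk1, Bub1b, Cenpe, Kif22, Prc1 and Incenp) and 3 in 1 (Kif4, Nek2 and Cdca8). The other 9 did not pass as higher in any: Cdc20, Cenpf, Ndc80, Kif11, Pttg1, Anln, Ect2, Smc4 and Racgap1. No share of all features stands beside these joint counts, and the 3 comparisons share their control arrays. Of the 23, Aurka, Top2a and Hmmr no longer rose in all 3 comparisons without control replicate 2. All 3 construct arrays lay above all 3 control arrays for 23, 32 and 30 genes in the same order, beside 16.5%, 16.5% and 14.7% of all features. All 3 lay below control for Ndc80 with MEIS1-WT, for Ect2 with MEIS1-deltaHD and for none of the genes with M33-MEIS1, beside 26.4%, 31.7% and 25.3%.

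**Figure D2:**
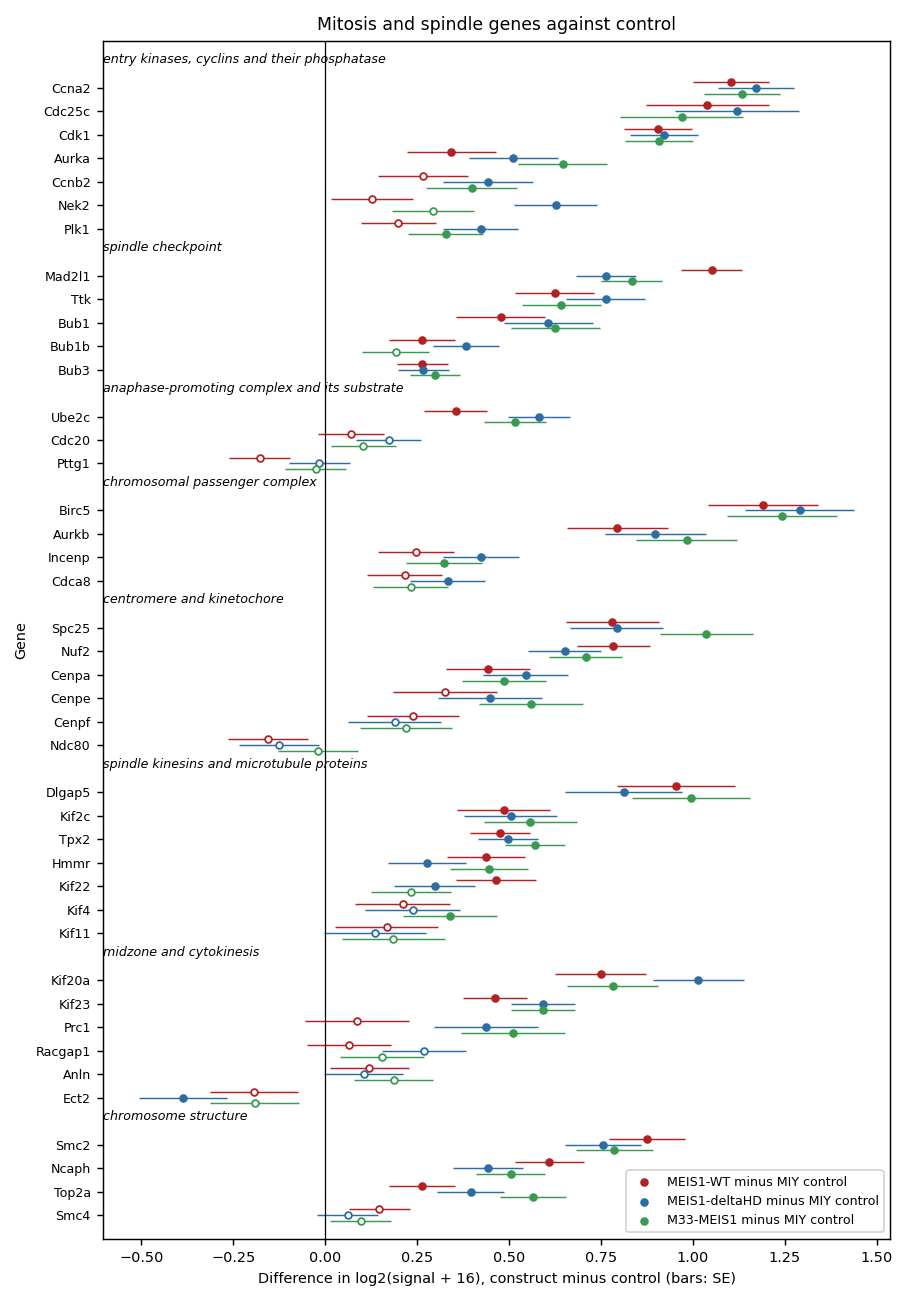
Difference in log2(signal + 16) of each gene, construct minus control, with its standard error (bars), grouped by role. Filled points have a limma adjusted p under 0.05; Birc5 lies farthest right at 1.19, 1.29 and 1.24, and Ect2 is the one filled point left of 0.

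Among the kinases, cyclins and phosphatase of mitotic entry, 4 of the 7 measured genes rose with MEIS1-WT, all 7 with MEIS1-deltaHD, and 6 with M33-MEIS1 (3, 6 and 4 without control replicate 2). Ccna2 encodes cyclin A2, which acts from S phase into early mitosis. Its signals on replicates 1, 2 and 3 were 531, 387 and 590.1 in control, 1068, 1063 and 1115 with MEIS1-WT, 1213, 1128 and 1070 with MEIS1-deltaHD, and 1105, 1041 and 1175 with M33-MEIS1. All construct arrays lay above all control arrays. The log2 differences from control were 1.10, 1.17 and 1.13 (SE 0.104; limma adjusted p = 7.15e-09, 3.01e-09 and 7.57e-09), and 0.93, 1.00 and 0.96 without control replicate 2.

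Cdk1, the kinase that drives entry into mitosis, read 737, 589.9 and 827 in control, 1325, 1256 and 1468 with MEIS1-WT, 1338, 1375 and 1372 with MEIS1-deltaHD, and 1406, 1357 and 1283 with M33-MEIS1. The groups again did not overlap with control, and the ratio of mean signals was 1.88, 1.90 and 1.88. Cdc25c, the phosphatase that activates Cdk1, was higher by 1.04, 1.12 and 0.97 on the log2 scale, from a dim control mean of 54.4 ± 20.6 (SD, n = 3). Its other kept probe set, at a control mean of 62.8, gave 0.42, 0.29 and 0.26 and passed with MEIS1-WT only (limma adjusted p = 0.0367, 0.147 and 0.224), so the probe sets of Cdc25c disagree.

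Plk1, the Polo-like kinase of centrosome maturation and spindle assembly, had the smallest absolute difference of this group on the mean of the 3 comparisons, though Nek2 differed less with MEIS1-WT and with M33-MEIS1. It read 329.7, 270.1 and 403 in control, 379.6, 397 and 367 with MEIS1-WT, 464, 453 and 427 with MEIS1-deltaHD, and 407, 440 and 408 with M33-MEIS1. Control and MEIS1-WT overlapped, while the other constructs lay above control. The log2 difference was 0.20 (limma adjusted p = 0.144) for MEIS1-WT, 0.42 (0.00185) for MEIS1-deltaHD and 0.33 (0.016) for M33-MEIS1, and the last call was lost without control replicate 2 (0.19) or without replicate 2 of M33-MEIS1.

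All 5 spindle checkpoint genes rose with the full and the homeodomain-less MEIS1, and 4 with M33-MEIS1, where Bub1b did not pass (4, 5 and 4 without control replicate 2). Mad2l1, the checkpoint protein that holds Cdc20 inactive, read 808, 758 and 958 in control, 1807, 1759 and 1692 with MEIS1-WT, 1433, 1550.3 and 1322 with MEIS1-deltaHD, and 1561, 1465 and 1486 with M33-MEIS1. Control was lowest and MEIS1-WT highest, with no overlap between MEIS1-WT and any other group. The log2 differences from control were 1.05, 0.76 and 0.83 (SE 0.0824). Bub3, a scaffold of the same checkpoint, differed least on the mean of the 3 comparisons, with Bub1b close to it (0.26, 0.38 and 0.19; the first was 0.18 and did not pass without control replicate 2). Bub3 read 1436, 1279 and 1379 in control, 1657, 1619.6 and 1645 with MEIS1-WT, 1622, 1698 and 1610.3 with MEIS1-deltaHD, and 1694, 1611 and 1739 with M33-MEIS1. Its differences of 0.26, 0.27 and 0.30 passed all the same (limma adjusted p = 0.00405, 0.00343 and 0.00162), and no construct array reached down to the controls.

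Of Cdc20, Ube2c and Pttg1, which act with or under the anaphase-promoting complex, Ube2c alone rose in each comparison, with and without control replicate 2. Ube2c, the ubiquitin-conjugating enzyme of the complex, read 1072, 850.2 and 1099.8 in control, 1305, 1247 and 1302 with MEIS1-WT, 1528, 1475 and 1514 with MEIS1-deltaHD, and 1329, 1457 and 1535 with M33-MEIS1. Every construct array exceeded every control array, and the mean differences were 0.35, 0.58 and 0.52 on the log2 scale.

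Pttg1, securin, which the complex destroys to release separase, read 1763, 1593 and 1980.3 in control, 1514, 1569 and 1612 with MEIS1-WT, 1763, 1847 and 1652 with MEIS1-deltaHD, and 1712, 1606 and 1918 with M33-MEIS1. The groups overlapped. The differences of -0.18, -0.02 and -0.03 did not pass, the first became -0.25 without control replicate 2 (limma adjusted p = 0.0228), and those with MEIS1-deltaHD and M33-MEIS1 turned to 0.49 and 0.33 when arrays were scaled to their medians. A dim Pttg1 probe set, at a control mean of 42.5, fell with MEIS1-WT (-0.71) and MEIS1-deltaHD (-0.66). For Cdc20, the activator of the complex, the brightest probe set (control mean 1660) did not pass (0.07, 0.17 and 0.10, and -0.07, 0.03 and -0.04 without control replicate 2), while one at a control mean of 789 rose by 0.45, 0.57 and 0.49 and one at 50.8 by 1.29, 1.33 and 0.98, so the probe sets of Cdc20 disagree.

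The chromosomal passenger complex corrects wrong attachments of chromosomes to the spindle. Of its 4 genes, 2 rose with MEIS1-WT, all 4 with MEIS1-deltaHD, and 3 with M33-MEIS1 (2, 3 and 2 without control replicate 2). Birc5 (survivin), which places the complex at the centromere, had the largest mean difference from control among the 42 genes. It read 617, 373 and 802 in control, 1276, 1351 and 1340.3 with MEIS1-WT, 1408, 1409 and 1433 with MEIS1-deltaHD, and 1519, 1323 and 1278 with M33-MEIS1. The control arrays spread widely and still lay below all others. The log2 differences were 1.19, 1.29 and 1.24 (SE 0.149; limma adjusted p = 7.56e-07, 2.32e-07 and 5.85e-07), and 0.89, 0.99 and 0.95 without control replicate 2. Aurkb, the kinase of the complex, rose by 0.79, 0.90 and 0.98.

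Cdca8 (borealin) differed least in the complex on the mean of the 3 comparisons. It read 1138, 842 and 1232 in control, 1359, 1228 and 1116 with MEIS1-WT, 1434, 1279.9 and 1299 with MEIS1-deltaHD, and 1223, 1294 and 1217 with M33-MEIS1. Only the MEIS1-deltaHD arrays cleared the controls, and that difference of 0.33 (limma adjusted p = 0.0125) did not pass when control replicate 2 (0.17) or MEIS1-deltaHD replicate 1 was left out.

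Of 6 centromere and kinetochore genes, 3 rose with MEIS1-WT and 4 with each of the other constructs (3, 3 and 4 without control replicate 2). Spc25, a subunit of the Ndc80 complex that grips microtubule ends, read 177, 119 and 201 in control, 295, 284 and 293 with MEIS1-WT, 274, 309.8 and 296 with MEIS1-deltaHD, and 348, 307 and 399 with M33-MEIS1. No construct array overlapped the controls, and the differences were 0.78, 0.79 and 1.04 on the log2 scale. Nuf2, another subunit of the same complex, rose by 0.78, 0.65 and 0.71. Ndc80 itself did not follow: it read 148, 146 and 182 in control, 142, 132 and 145 with MEIS1-WT, 132, 157 and 141 with MEIS1-deltaHD, and 141, 158 and 168 with M33-MEIS1. These values overlapped except between control and MEIS1-WT, and the differences of -0.16, -0.13 and -0.02 did not pass (limma adjusted p = 0.3, 0.392 and 0.914). Cenpa, the centromeric histone, rose by 0.44, 0.55 and 0.49 on a probe set with a control mean of 620, and by 0.25, 0.36 and 0.30 without control replicate 2; its other kept probe sets, at 8.30 and 32.2, did not pass.

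Of 7 spindle kinesins and microtubule proteins, 5 rose with each construct (5, 3 and 4 without control replicate 2). Dlgap5, which stabilises microtubules near chromosomes, read 139, 80.4 and 166 in control, 229, 239 and 300.3 with MEIS1-WT, 237, 197 and 257 with MEIS1-deltaHD, and 299, 252 and 238 with M33-MEIS1. Control arrays were the 3 lowest, and the differences were 0.95, 0.81 and 0.99. Tpx2, the activator of Aurora A, rose by 0.48, 0.50 and 0.57. Kif11, the motor that pushes the spindle poles apart, read 373, 218 and 378 in control, 329, 372 and 363 with MEIS1-WT, 369, 334 and 337 with MEIS1-deltaHD, and 425, 329 and 331 with M33-MEIS1. Here control replicates 1 and 3 lay among or above the construct arrays, and the differences of 0.17, 0.14 and 0.19 did not pass and turned to -0.08, -0.11 and -0.06 without control replicate 2. Another Kif11 probe set, at a control mean of 215, rose by 0.38, 0.60 and 0.45.

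Of 6 midzone and cytokinesis genes, 2 rose with MEIS1-WT and 3 with each of the other constructs (2, 2 and 2 without control replicate 2). Kif20a, a kinesin of the central spindle, read 239.5, 156 and 276 in control, 362, 390.4 and 382 with MEIS1-WT, 472, 465 and 435 with MEIS1-deltaHD, and 395, 392 and 373 with M33-MEIS1. The MEIS1-deltaHD arrays lay above all others and the controls below all others, with differences from control of 0.75, 1.01 and 0.78. Kif23, the kinesin of centralspindlin, rose by 0.46, 0.59 and 0.59, whereas its partner Racgap1 did not pass. Anln (anillin), a scaffold of the contractile ring, read 451, 303 and 454 in control, 426, 428 and 442 with MEIS1-WT, 424, 416 and 442 with MEIS1-deltaHD, and 476, 436 and 449 with M33-MEIS1. Control replicate 2 was lowest and control replicates 1 and 3 lay above all MEIS1-WT and MEIS1-deltaHD arrays, so the control arrays fell on both sides of the constructs. Its differences of 0.12, 0.10 and 0.19 did not pass and were -0.06, -0.08 and 0.003 without control replicate 2.

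Ect2, the exchange factor that turns on RhoA at the cleavage site, was the one gene to fall. It read 219, 209 and 301 in control, 214, 234 and 179 with MEIS1-WT, 162, 177 and 202 with MEIS1-deltaHD, and 209, 207 and 208 with M33-MEIS1. Only the MEIS1-deltaHD arrays lay wholly below control, by 0.39 on the log2 scale (difference -0.39, SE 0.120, limma adjusted p = 0.0136). That call was lost without control replicate 3 or without MEIS1-deltaHD replicate 1, and the difference turned to 0.08 when arrays were scaled to their medians.

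Of 4 genes of chromosome structure, Smc2, Ncaph and Top2a rose with each construct and Smc4 with none (2, 3 and 3 genes without control replicate 2, which ended the call of Top2a with MEIS1-WT). Smc2 and Smc4 form the ATPase core of condensin, which compacts chromosomes. Smc2 read 633, 476 and 709 in control, 1091, 1169.8 and 1070.3 with MEIS1-WT, 975, 1046 and 1042 with MEIS1-deltaHD, and 1171, 1012 and 957 with M33-MEIS1. Its groups did not overlap with control, at differences of 0.87, 0.76 and 0.79. Smc4 read 1469, 1154 and 1425 in control, 1547, 1411 and 1509 with MEIS1-WT, 1342, 1430.2 and 1430.1 with MEIS1-deltaHD, and 1439, 1368 and 1502 with M33-MEIS1. Its arrays overlapped in every comparison with control, and the differences of 0.15, 0.06 and 0.10 did not pass (limma adjusted p = 0.184, 0.6 and 0.415) and were 0.04, -0.05 and -0.01 without control replicate 2.

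**Figure D3:**
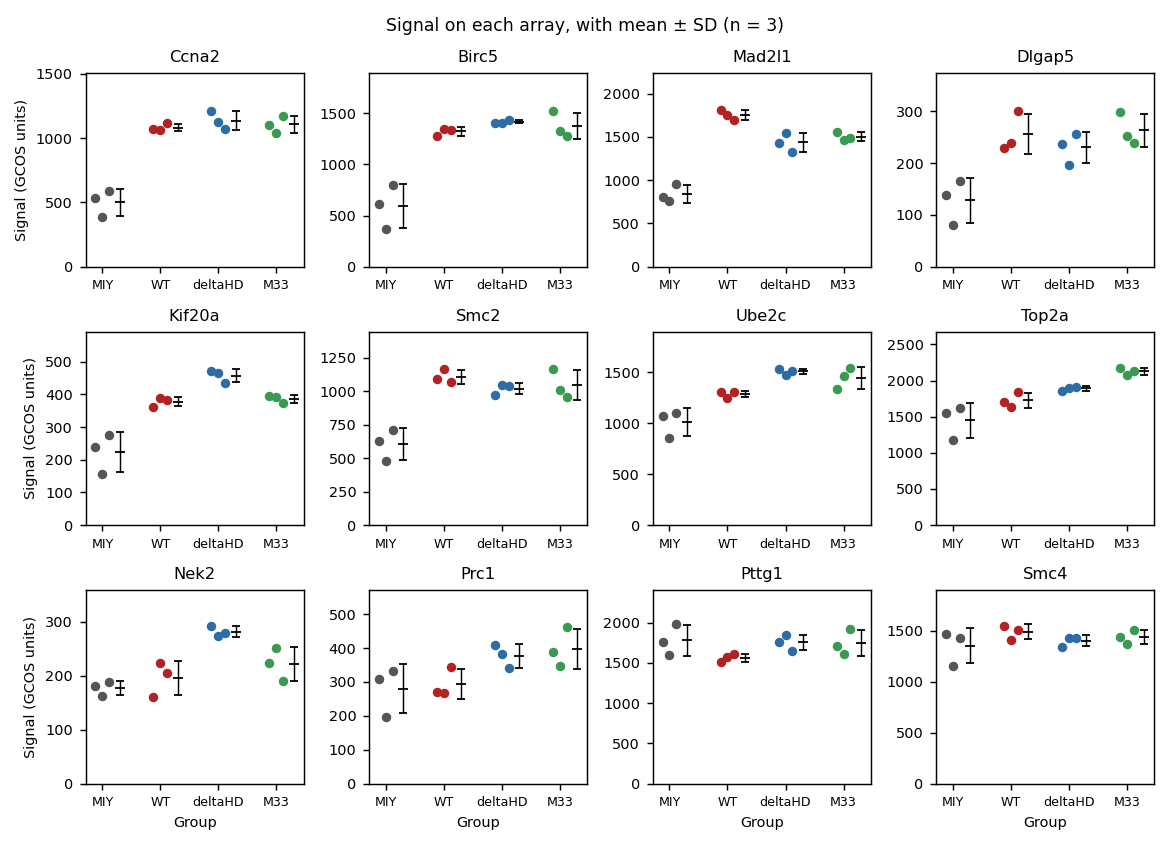
Signal of 12 of the genes on each array (points, replicates 1 to 3 from left to right) with mean ± SD (n = 3) beside them, for the MIY control, MEIS1-WT (WT), MEIS1-deltaHD (deltaHD) and M33-MEIS1 (M33). Ccna2, Birc5 and Smc2 show all construct arrays above all controls. Nek2 is highest with MEIS1-deltaHD, and its M33-MEIS1 arrays also lie above control. For Pttg1 and Smc4 each construct overlaps control.

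Probe sets bear on these counts. When the 99 kept probe sets were tested singly among 31762, 47 rose with MEIS1-WT and 1 fell (beside 13.1% and 17.8% of all probe sets), 55 rose and 2 fell with MEIS1-deltaHD (13.7% and 20.8%), and 50 rose and none fell with M33-MEIS1 (11.8% and 17.1%). Of the 24 with a control mean under 50, 0, 1 and 1 rose, with median differences of 0.02, -0.01 and -0.02. Of the 75 at 50 or more, 47, 54 and 49 rose, with medians of 0.38, 0.45 and 0.46. In these comparisons no gene had 1 probe set called higher and another called lower. Yet of the 30 genes with several kept probe sets, only 4, 5 and 4 had all of them called higher. No share of all features stands beside these last counts.

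**Figure D4:**
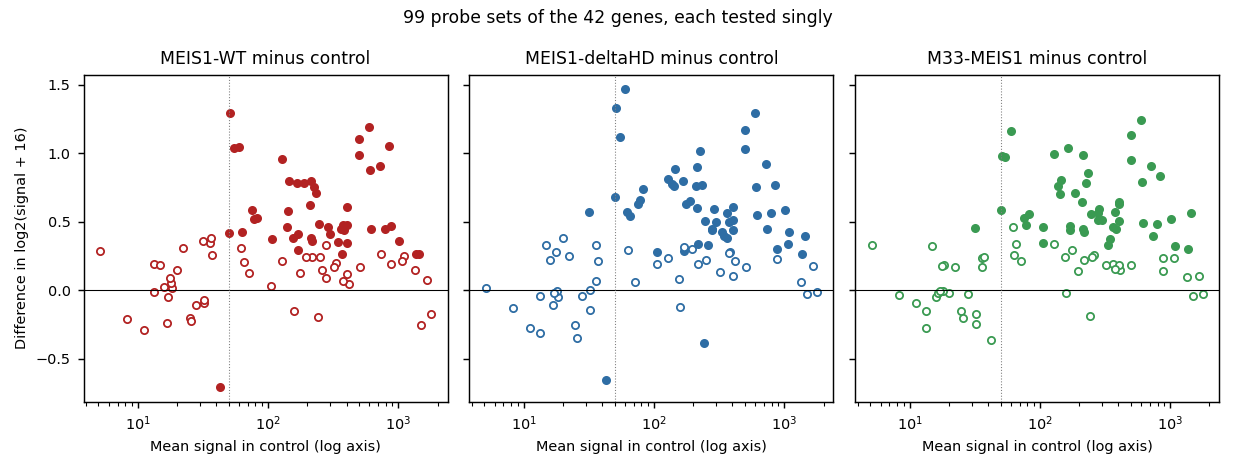
Each point is 1 of the 99 kept probe sets of the 42 genes, at its mean control signal (log axis) and its difference in log2(signal + 16) from control; filled points have a limma adjusted p under 0.05. To the right of the dotted line at a signal of 50, 47, 54 and 49 of 75 probe sets rose, and to its left 0, 1 and 1 of 24.

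Between the constructs, far fewer of the 42 genes differed. MEIS1-WT against MEIS1-deltaHD, which sets the full protein against the form without its homeodomain, gave 1 gene higher with MEIS1-WT (Mad2l1) and 1 lower (Nek2), beside 2.42% and 2.82% of all features. M33-MEIS1 against MEIS1-WT gave 1 gene higher (Top2a) and none lower, beside 4.1% and 2.35%. M33-MEIS1 against MEIS1-deltaHD gave none in either direction, beside 0.669% and 0.04%. At an unadjusted p under 0.05, limma put 1 gene higher and 5 lower in the first of these (beside 8.45% and 7.32% of all features), 3 higher and 2 lower in the second (9.15% and 8.19%), and none higher and 2 lower in the third (7.02% and 3.69%). The median differences were -0.09, 0.05 and 0.03, against 0.03, 0.00 and 0.03 over all features. At an adjusted p under 0.05, the counts for MEIS1-WT against MEIS1-deltaHD and for M33-MEIS1 against MEIS1-WT were at the background of all features. Arrays did not overlap for 4 genes higher and 11 lower with MEIS1-WT than with MEIS1-deltaHD (beside 12.5% and 10.5% of all features), for 10 higher and 1 lower with M33-MEIS1 than with MEIS1-WT (11.1% and 10.4%), and for 5 higher and 3 lower with M33-MEIS1 than with MEIS1-deltaHD (9.65% and 6.31%). The 11 were Ccnb2, Plk1, Birc5, Kif20a, Kif23, Top2a, Nek2, Ube2c, Pttg1, Incenp and Racgap1. The 10 were Ccnb2, Aurka, Plk1, Bub1, Cenpe, Spc25, Kif23, Top2a, Ube2c and Prc1. The 11 and the 10 were larger shares of the 42 than those of all features. Of the 42 genes, 31 lay below the median of all features for MEIS1-WT against MEIS1-deltaHD. For M33-MEIS1 against MEIS1-WT 9 did, and for M33-MEIS1 against MEIS1-deltaHD 20 did. These shifts of the list were not tested.

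Nek2, a kinase that splits the centrosomes, read 180.2, 163 and 187 in control, 161, 223 and 205 with MEIS1-WT, 292, 273 and 279 with MEIS1-deltaHD, and 223, 251 and 189.7 with M33-MEIS1. Only the MEIS1-deltaHD arrays stood above all the others. MEIS1-WT lay below MEIS1-deltaHD by 0.50 on the log2 scale (difference -0.50, 95% interval -0.731 to -0.267, limma adjusted p = 0.00642), and the call was lost without MEIS1-WT replicate 1. The value rests on the brightest of 4 probe sets: the others, at control means of 5.15 to 71.9, gave no call against control, and the difference between these constructs was 0.07 with suffixed probe sets left out.

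Mad2l1 was higher with MEIS1-WT than with MEIS1-deltaHD by 0.29 (95% interval 0.117 to 0.458, limma adjusted p = 0.0406). That call was lost on leaving out any MEIS1-WT array or replicate 1 or 3 of MEIS1-deltaHD. Top2a, the topoisomerase that untangles sister chromatids, read 1555, 1171 and 1617 in control, 1699, 1637 and 1842 with MEIS1-WT, 1859, 1899 and 1914 with MEIS1-deltaHD, and 2176, 2073 and 2135 with M33-MEIS1. The 3 construct groups did not overlap, in the order MEIS1-WT, MEIS1-deltaHD, M33-MEIS1, and control lay below them all. The log2 differences of Top2a from control averaged 0.41 over the 3 comparisons. When control replicate 2 was left out they were 0.12, 0.25 and 0.42 in that order, and the first did not pass. M33-MEIS1 exceeded MEIS1-WT by 0.30 (95% interval 0.115 to 0.487, limma adjusted p = 0.0454), a call lost when any 1 of 8 arrays was left out: replicate 1 or 2 of MEIS1-WT or any array of MEIS1-deltaHD or M33-MEIS1.

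Prc1, which bundles the microtubules of the midzone, read 310, 197 and 332 in control, 269, 266 and 344 with MEIS1-WT, 408, 382 and 339.8 with MEIS1-deltaHD, and 387, 346 and 463 with M33-MEIS1. MEIS1-WT overlapped control. The differences from control of 0.44 with MEIS1-deltaHD and 0.51 with M33-MEIS1 passed, and without control replicate 2 they were 0.22 and 0.29 and did not. M33-MEIS1 lay above MEIS1-WT by 0.42 (95% interval 0.133 to 0.716, limma adjusted p = 0.079), a difference that did not pass. Aurka (Aurora A, the kinase of the spindle poles) read 477, 293 and 446 in control, 472, 491 and 562 with MEIS1-WT, 591, 611 and 518 with MEIS1-deltaHD, and 612, 625 and 651 with M33-MEIS1. Its highest arrays were those of M33-MEIS1, 0.30 above MEIS1-WT (95% interval 0.054 to 0.552, limma adjusted p = 0.166). Without control replicate 2, which enters through the shared estimate of the spread, Kif20a, Prc1 and Ube2c also passed as lower with MEIS1-WT than with MEIS1-deltaHD, making 4, and Aurka and Prc1 as higher with M33-MEIS1 than with MEIS1-WT, making 3.

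The 95% intervals between constructs show how precisely each difference was estimated. Each is for 1 gene and is not adjusted for the number of genes. For a gene with a small difference from control such an interval can be as wide as that difference. For Ccna2, which had a large one, the intervals were -0.283 to 0.145 (MEIS1-WT minus MEIS1-deltaHD), -0.252 to 0.176 (M33-MEIS1 minus MEIS1-deltaHD) and -0.183 to 0.246 (M33-MEIS1 minus MEIS1-WT). For Cdk1 they were -0.206 to 0.176, -0.206 to 0.177 and -0.191 to 0.192. For Birc5 they were wider, at -0.408 to 0.21, -0.357 to 0.261 and -0.258 to 0.359. Over all 42 genes the estimates ran from -0.50 to 0.29, from -0.33 to 0.24 and from -0.23 to 0.42.

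**Figure D5:**
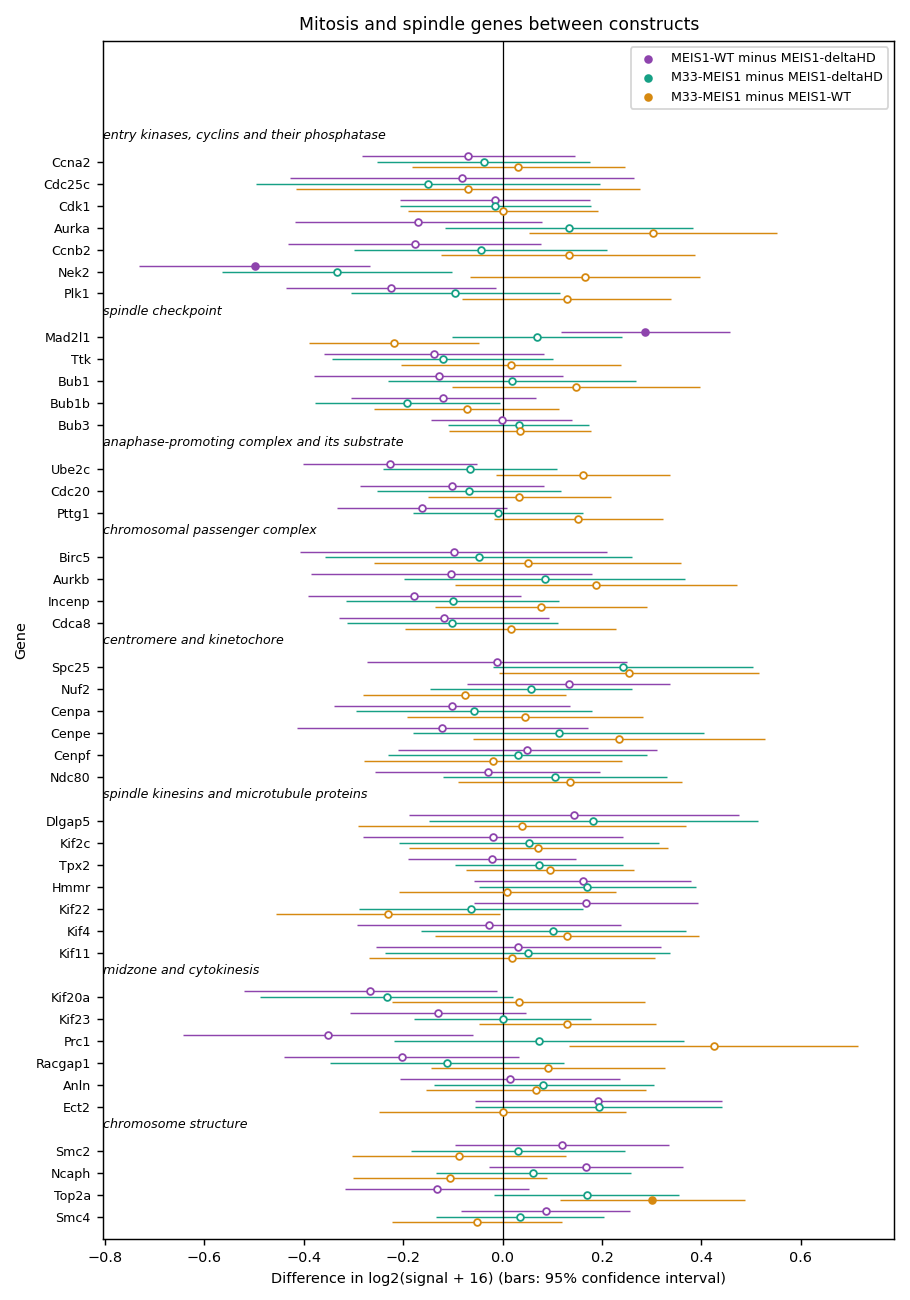
Difference in log2(signal + 16) of each gene between constructs with its 95% confidence interval (bars), grouped by role. The 3 filled points, with a limma adjusted p under 0.05, are Nek2 (-0.50) and Mad2l1 (0.29) for MEIS1-WT minus MEIS1-deltaHD and Top2a (0.30) for M33-MEIS1 minus MEIS1-WT.

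Other genes that act with the 42 were read from lists of pathway members, with counts in the order MEIS1-WT, MEIS1-deltaHD, M33-MEIS1 against control, where 13.3%, 13.8% and 12.4% of all features were called higher. The shares called lower were 19.4%, 22.7% and 18.3%. Of 24 further kinetochore genes 17, 18 and 17 rose and none fell. Spc24, the partner of Spc25, rose by 1.11, 1.07 and 0.99, and Cenpi, of the inner kinetochore, by 1.06, 1.17 and 1.22. Of 5 further condensin subunits 4 rose in each comparison, among them Ncapg2 (0.81, 0.65 and 0.79) and Ncapg (0.64, 0.45 and 0.59).

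Of 16 subunits and regulators of the anaphase-promoting complex 10, 10 and 11 rose and none fell. Anapc1, its largest subunit, rose by 0.65, 0.78 and 0.64, and Espl1, separase, by 0.54, 0.67 and 0.63. Of 10 centrosome genes 7, 7 and 8 rose and none fell, with the centrins Cetn2 (0.75, 0.74 and 0.83) and Cetn3 (0.59, 0.53 and 0.60) among them.

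Of 15 further spindle genes 6, 6 and 5 rose, led by Tacc3, which stabilises spindle fibres (1.21, 1.31 and 1.21), with Spag5 at 0.58, 0.67 and 0.55. Numa1, which anchors the spindle poles, fell with MEIS1-deltaHD and M33-MEIS1 (-0.24 and -0.26). Of 13 cohesin genes 6, 5 and 5 rose, such as Esco2 (0.77, 0.76 and 0.85) and Cdca5, sororin (0.77, 0.71 and 0.58), while the loader Nipbl fell with MEIS1-WT (-0.41) and Wapl with M33-MEIS1 (-0.21). Neither of these falls passed without control replicate 2 (-0.35 and -0.19).

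Of 11 measured regulators of CDK1 4, 4 and 6 rose. Cdc25a, a phosphatase that activates cyclin-dependent kinases, rose by 0.57, 0.81 and 0.67, and Ccnf by 0.67, 0.91 and 0.83. Ensa, an inhibitor of the phosphatase that opposes CDK1, fell (-0.58, -0.57 and -0.40). Of 12 genes of the complexes that read the CHR, with their pocket protein and E2F partners, 2, 5 and 4 rose, which is 16.7%, 41.7% and 33.3%. With MEIS1-WT that share was near the background of all features, and without control replicate 2 the count was 2 of 12 in each comparison. Mybl2 (B-Myb) rose by 0.96, 1.10 and 0.95 and Tfdp1 by 0.81, 0.83 and 0.75, while Rb1, the retinoblastoma protein, fell (-0.48, -0.55 and -0.52). Foxm1, a late activator of these promoters, was dim, at a control mean of 68.8 ± 24.7 (SD, n = 3), and rose with MEIS1-deltaHD (0.48) and M33-MEIS1 (0.50) but not with MEIS1-WT (0.29, limma adjusted p = 0.175). Without control replicate 2 none of the 3 differences of Foxm1 passed (0.14, 0.33 and 0.34).

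DNA replication genes, which act before mitosis, rose over nearly the whole list: 27, 28 and 25 of 28, with medians of 0.86, 0.82 and 0.81 and none lower. Fen1, a flap endonuclease, rose by 1.68, 1.89 and 1.72, and Tk1, thymidine kinase, by 1.84, 1.71 and 1.69. Without control replicate 2 the replication counts were 27, 25 and 24 and the further kinetochore counts 15, 13 and 12. The kinetochore gene Cenpl then fell with MEIS1-WT (-0.49) and MEIS1-deltaHD (-0.565). On the same arrays 5, 6 and 6 centrosome genes rose, 9, 10 and 9 of the anaphase-promoting complex, and 4, 4 and 3 further condensin subunits. Further spindle genes gave 5, 5 and 4 higher and 1, 2 and 1 lower. Cohesin genes gave 5, 4 and 6 higher and 0, 1 and 0 lower. Regulators of CDK1 gave 3, 4 and 5 higher and 1, 2 and 1 lower.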

How the data were processed

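The file is a table of the authors' scaled array intensity values for 45101 probe sets, made with GCOS 1.2 per the submitters' processing notes, with no further processing step named there. The deposited values were used as they stand: log2(signal + 16), probe sets above their array's 40th percentile on at least 3 arrays (31762 kept, 64 array controls left out), and for each gene the brightest of its kept probe sets by mean. Probe sets were named from a platform annotation (34945 with 1 symbol, 932 with several, 9160 with none), so old symbols can remain; 4 list symbols were matched through RefSeq synonyms. Differences were fitted with limma 3.58.1 (R 4.3.3; group means, 4 groups, 8 residual degrees of freedom, eBayes with trend), with adjusted p over 20015 features, and the script was tested on simulated data. The number of arrays, 3 a group, limits the precision. The members, lists and tests were chosen with earlier results of these data known. Any member may be named. By rule, values on every array are given for the genes with the largest and smallest mean absolute difference from control in each role and the 3 with the largest difference between each pair of constructs, and up to 2 genes are named per pathway list. The values of Cdk1 and Ect2 on every array, and Foxm1, Ensa, Rb1, Numa1, Nipbl, Wapl, Cenpl and Pdgfrb, were added after their values were seen. Alternatives varied scaling, pseudocount, filter, probe set choice, block, samples fitted and trend.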

Additional observations from a re-analysis of the deposited data

How the results depend on the processing

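Counts of the 42 genes are given in the order MEIS1-WT, MEIS1-deltaHD, M33-MEIS1 against control; the cause of a change was not tested unless stated. Of the 25, 32 and 29 genes called higher, 20, 26 and 23 were tested under every alternative, and 13, 15 and 15 of these passed under each; 22, 26 and 24 passed whichever array was left out. Scaling set the balance of calls: the share of all called features that were higher was 40.7%, 37.8% and 40.3% as deposited, 51.1%, 49.7% and 50.7% after quantile normalization, and 77.4%, 82.2% and 80.7% with arrays scaled to their medians, which moved the median of all features to 0.10, 0.13 and 0.10. Higher counts were then 22, 28 and 28 (quantile) and 39, 40 and 40 (median scaling). Lower counts became 1 with MEIS1-WT (Pttg1) under quantile normalization, all probe sets singly, and suffixed probe sets left out (34 genes tested, without Aurkb, Birc5, Cdc25c, Kif20a and Nuf2 among others); with MEIS1-deltaHD they became 0 under median scaling or eBayes without trend, and 2 with all probe sets singly.

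Between constructs, MEIS1-WT against MEIS1-deltaHD gave 0 higher under median scaling, no filter and eBayes without trend, and lower counts of 0 with suffixed probe sets left out or without trend, and 4 with only those 2 groups fitted. M33-MEIS1 against MEIS1-WT gave 0 higher under median scaling, pseudocount 1, no filter, all probe sets singly, suffixed probe sets left out and no trend, and 3 with only those 2 groups fitted. Leaving out 1 array gave 22 to 32, 26 to 35 and 24 to 33 higher, 0 to 1, 0 to 1 and 0 lower; 0 to 1 higher and 0 to 4 lower for MEIS1-WT against MEIS1-deltaHD; and 0 to 3 higher for M33-MEIS1 against MEIS1-WT. The lowest control counts came without control replicate 2 and the highest without control replicate 3.

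Signs turned for Cenpa (-0.076, -0.129 and -0.034 with probe sets singly, -0.076, -0.143 and -0.25 with suffixed ones left out), Spc25 with MEIS1-deltaHD and M33-MEIS1 (-0.004 and -0.005, suffixed left out), Pttg1 (0.49 and 0.33) and Ect2 with MEIS1-deltaHD (0.083) under median scaling, and Nek2 between MEIS1-WT and MEIS1-deltaHD (0.17 with probe sets singly, 0.07 with suffixed left out). For Cenpa and Spc25 the remaining probe sets were dim. The median of M33-MEIS1 against MEIS1-deltaHD turned to -0.11 under median scaling, -0.006 with probe sets singly and -0.008 without M33-MEIS1 replicate 1; leaving out 1 array gave -0.008 to 0.049.

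Same-numbered arrays did not deviate together (18 correlations of -0.04 to 0.03, 0 above 0.1), so the numbers do not pair the samples. With the replicate number as a block the counts against control stayed 25, 32 and 29, MEIS1-WT against MEIS1-deltaHD gave 0 higher, and M33-MEIS1 against MEIS1-WT gave 2.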
